A study of Mus musculus with 12 samples.

Results

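The insulin-like growth factor (IGF) genes examined here were the ligands Igf1 and Igf2, the receptors Igf1r and Igf2r, and the binding proteins Igfbp2, Igfbp3, Igfbp4, Igfbp5, Igfbp6 and Igfbp7. They were taken by gene symbol from a table of 24964 genes, and each of the 10 was found there and passed the filter on low counts. RNA-seq had been run on mouse uterus at 13.5 days post coitum (dpc), with 4 libraries in each of 3 groups. PGR-A OE uteri carried Myh11Cre with LSLPGRA/+, and PGR-B OE uteri carried Myh11Cre with LSLPGRB/+. Each LSL allele becomes active where Cre has removed its stop cassette. Control uteri carried Myh11Cre alone, so every group had the Cre driver. The Myh11 promoter acts in smooth muscle of vessels as well as of the myometrium, whereas the RNA came from uterine tissue with all its cell types. The series compared the midpregnant uterus with more of the A or of the B isoform of the progesterone receptor with its control. The labels do not say that the libraries came from separate animals, so the p-values measure the spread between these libraries, which may be technical.

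IGF-I and IGF-II are secreted peptides that act through the IGF-I receptor, a tyrosine kinase, to promote growth and survival of cells, and in the uterus they are known for growth of stroma and muscle. The IGF-II receptor, also the mannose 6-phosphate receptor, takes up IGF-II and carries it to lysosomes. The binding proteins hold IGFs in blood and tissue fluid, and proteases of the pappalysin family release the ligand by cutting some of them.

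Library totals ran between 31872534 and 33078483 counted reads. Pgr itself, the gene of the receptor, had 165.8 to 254.8 CPM (counts scaled to a common library size, as millionths of it) in PGR-A OE libraries and 188 to 248 CPM in PGR-B OE libraries, against 106 to 142 CPM in control libraries, and every overexpression library lay above the control range. It rose in both groups (log2 change 0.72 in PGR-A OE, edgeR adjusted p = 0.0416, and 0.88 in PGR-B OE, edgeR adjusted p = 0.0196), though the first call was lost in 7 and the second in 6 of the 8 fits that each left out 1 library. The first was also lost on the 8 libraries compared (edgeR adjusted p = 0.0902). Over 15561 genes tested with edgeR's quasi-likelihood test, 102 passed a Benjamini-Hochberg adjusted p of 0.05 in PGR-A OE over control, 48 in PGR-B OE over control and 18 in the comparison of PGR-B OE with PGR-A OE, called between the isoforms below. The first 2 comparisons share the control libraries. PGR-A OE replicate 4 and control replicate 4 lay farthest out in a principal component analysis (23.0% of variance on the leading axis), and with both left out the Pgr value in PGR-A OE was 0.52 (edgeR adjusted p = 0.0906). Of the smooth muscle genes that define the tissue's muscle, Myh11 was at 3267 to 6316 CPM in PGR-A OE libraries and at 2940 to 3907 CPM in PGR-B OE libraries, against 2423 to 3094 CPM in control libraries. The list of 10 smooth muscle markers did not all follow Myh11. Over control, 10 of them had a positive log2 change in PGR-A OE (median 0.30) and 3 in PGR-B OE (median -0.07). Of all genes 50.1% and 48.8% were positive in these comparisons. Collagen, epithelial and macrophage genes were read in every library too, and trophoblast markers summed to 15.6 CPM or less, with Psg21 and Gcm1 at 0.

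None of the 10 IGF genes passed the adjusted threshold in any of the 3 comparisons with edgeR, and none did with DESeq2 or limma voom. Across all genes, 0.655% passed in PGR-A OE over control, 0.308% in PGR-B OE over control and 0.116% between the isoforms. At an unadjusted p under 0.05, edgeR gave 2 of the 10 in PGR-A OE over control (Igfbp4 and Igfbp7), 1 in PGR-B OE over control (Igfbp7) and 0 between the isoforms. Of all genes 15.4%, 9.28% and 8.04% were below that level in the same 3 comparisons. DESeq2 gave 2, 1 and 1 genes below it and limma voom 2, 1 and 0, the added gene with DESeq2 being Igfbp2. The values below therefore describe how much of each transcript the midpregnant uterus held, how far libraries of one group differed and which sizes of change the 95% intervals leave in.

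Igfbp4, Igfbp7 and Igfbp2 are the binding protein genes whose values set the groups farthest apart relative to their spread, and the 250 bases before their RefSeq start sites (GRCm38.p6) are shown for that reason, each 5′ to 3′ on the gene's own strand. Capitals mark matches on either strand to 3 motifs. The half-site of the progesterone response element was searched as TGTTCT on both strands, since the receptor binds DNA as a pair of units that each meet such a site. The TATA box, where the general transcription machinery sits before many genes with a sharp start, was searched as TATAAA in the same way. The GC box, a site of Sp1-type factors common in promoters of housekeeping and growth-related genes, was searched as GGGCGG.
Igfbp4, chr11:99040994-99041243, plus strand: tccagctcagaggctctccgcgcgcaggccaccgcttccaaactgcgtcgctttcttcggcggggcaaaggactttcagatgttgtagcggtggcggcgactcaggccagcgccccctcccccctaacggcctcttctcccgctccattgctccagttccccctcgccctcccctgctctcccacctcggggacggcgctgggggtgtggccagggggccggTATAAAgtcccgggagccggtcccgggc
Igfbp7, chr5:77408046-77408295, minus strand: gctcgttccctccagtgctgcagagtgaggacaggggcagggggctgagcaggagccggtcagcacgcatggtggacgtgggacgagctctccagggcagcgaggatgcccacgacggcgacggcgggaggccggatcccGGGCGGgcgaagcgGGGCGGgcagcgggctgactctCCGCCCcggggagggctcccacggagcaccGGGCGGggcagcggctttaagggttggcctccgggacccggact
Igfbp2, chr1:72824230-72824479, plus strand: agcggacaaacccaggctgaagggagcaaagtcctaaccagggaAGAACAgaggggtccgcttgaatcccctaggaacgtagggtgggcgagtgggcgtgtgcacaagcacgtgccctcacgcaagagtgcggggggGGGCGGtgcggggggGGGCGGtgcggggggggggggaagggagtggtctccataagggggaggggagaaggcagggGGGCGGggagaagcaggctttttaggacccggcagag
The Igfbp4 window holds a TATA box 28 to 23 bases before the start and no GC box, while the Igfbp7 window holds 4 GC boxes and no TATA box. A single half-site stands in the Igfbp2 window, 206 to 201 bases before the start, beside 3 GC boxes. A half-site on either strand occurs in 16.1% of the 32851 promoters of the same length, and in 2 of the 14 promoters of the IGF genes. The full palindrome, which is the half-site in both directions with any 3 bases between, was found in 3 of all promoters and in none of these 14. TATA boxes occur in 12.4% and GC boxes in 32.7% of all promoters. No motif overlaps another in these windows, and such matches describe letters, not binding.

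Per length, transcripts of the binding proteins far exceeded those of their ligands in all 3 groups. Levels between genes are given as CPM per kilobase of the gene length in the deposited table. Igfbp2 averaged 625 ± 138 CPM per kilobase in PGR-A OE uteri, 406 ± 70.1 in PGR-B OE uteri and 510 ± 254 in control uteri (SD, n = 4 each). Igfbp7 averaged 426 ± 48.3 in PGR-A OE uteri, 414 ± 49.2 in PGR-B OE uteri and 341 ± 37.9 CPM per kilobase in control uteri. Each of the 6 binding proteins lay at the 93.7th percentile of the 15561 tested genes or higher in every group. Among the ligands, Igf1 lay at the 71.8th percentile in PGR-A OE, the 74.9th in PGR-B OE and the 67.8th in control uteri, and Igf2 at the 36.8th, 35.1th and 33.7th.

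The order of levels in control uteri was Igfbp2, Igfbp7, Igfbp6, Igfbp5, Igfbp4, Igfbp3, Igf2r, Igf1, Igf1r and Igf2, and PGR-A OE uteri had the same order of means. In PGR-B OE uteri Igfbp7 stood before Igfbp2 and Igf1 before Igf2r. Neighbours whose library ranges overlapped in control uteri were Igfbp2 with Igfbp7 and Igf1r with Igf2. In PGR-A OE uteri the ranges of Igfbp5 and Igfbp4 and those of Igf2r and Igf1 overlapped as well. In PGR-B OE uteri each neighbouring pair from Igfbp7 down to Igfbp3 overlapped, as did Igf1 with Igf2r. Taking the longest GENCODE transcript as the length put Igfbp4 at 82.1 CPM per kilobase in PGR-A OE, 76.5 in PGR-B OE and 57.6 in control uteri, and it then changed places with Igfbp3 in PGR-B OE and control uteri, as did Igf1 with Igf2r in PGR-A OE uteri and Igfbp2 with Igfbp7 in PGR-B OE uteri.

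**Figure D1:**
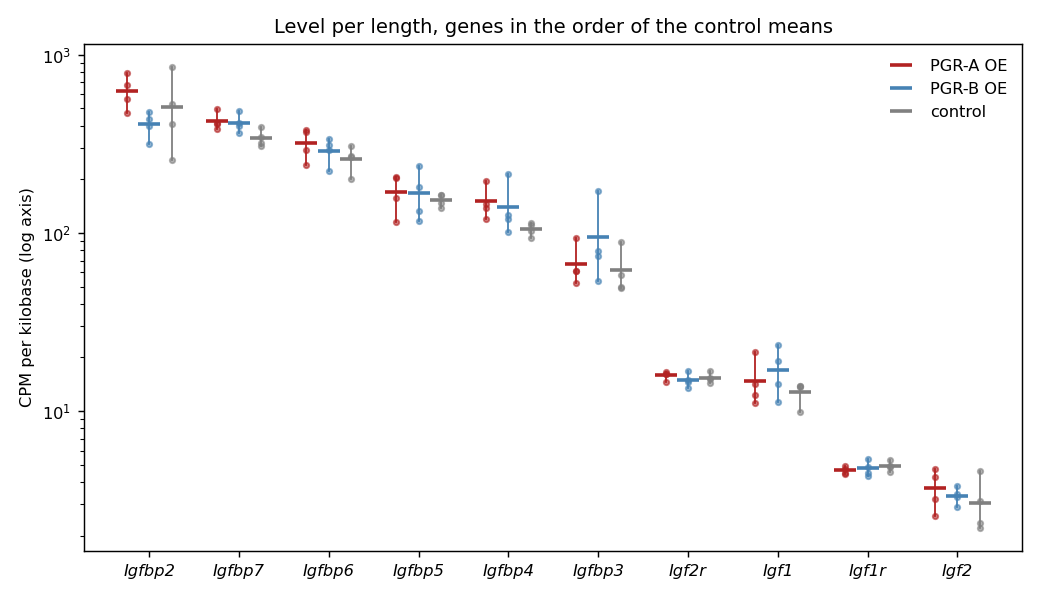
Level per length of each gene as CPM per kilobase on a log axis, with genes in the order of the control means. Points are libraries, the horizontal marks are means and the vertical lines the ranges (n = 4 per group); the 6 binding proteins, with lowest library values from 48.8 CPM per kilobase up, lie above both receptors and both ligands.

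Igf1, the growth factor made by stroma and other cells under growth hormone and sex steroids, had the wider spread of the ligands in the overexpression groups. The PGR-A OE libraries held 115.5, 101, 90.9 and 175 CPM, the PGR-B OE libraries 191, 156, 91.6 and 116 CPM, and the control libraries 113, 113, 111 and 80.5 CPM in replicates 1 to 4. PGR-A OE replicate 4 and PGR-B OE replicates 1 and 2 were well above every control library, PGR-A OE replicate 1 and PGR-B OE replicate 4 were just above, and the other overexpression libraries lay within the control range. The log2 change was 0.21 in PGR-A OE over control (SE 0.24, edgeR adjusted p = 0.72) and 0.41 in PGR-B OE over control (SE 0.24, edgeR adjusted p = 0.644). Without PGR-A OE replicate 4 the first value was -0.03, without control replicate 4 it was 0.10 and without PGR-A OE replicate 3 it was 0.32, and without PGR-B OE replicate 1 the second was 0.21.

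Igf2, the imprinted fetal ligand, was at a low level in these uteri. The PGR-A OE libraries held 21.3, 19.3, 11.7 and 14.6 CPM, the PGR-B OE libraries 17.1, 13.1, 15.5 and 14.8 CPM, and the control libraries 14.1, 10.0, 10.6 and 20.8 CPM. The groups overlapped, and the highest control library, replicate 4, was close to the highest PGR-A OE library. Its log2 change was 0.27 in PGR-A OE over control (SE 0.23, edgeR adjusted p = 0.611) and 0.12 in PGR-B OE over control (SE 0.23, edgeR adjusted p = 0.912). Without control replicate 4 these became 0.53 and 0.38. That library also held 5393 CPM of the summed decidual stromal markers, 5054 of it Prl8a2, a decidual prolactin family gene, against 388 to 681 CPM in the other control libraries. The same list summed to 259 to 1532 CPM in PGR-A OE and 936 to 1203 CPM in PGR-B OE libraries. Its part in the Igf2 level was not tested. H19, the imprinted non-coding neighbour of Igf2, was at 39.4, 53.0, 24.0 and 28.2 CPM in PGR-A OE libraries and at 40.7, 24.3, 41.5 and 29.5 CPM in PGR-B OE libraries, against 25.7, 21.1, 19.5 and 40.2 CPM in control libraries. Control replicate 4 was the highest control library for H19 as for Igf2, and the 2 highest PGR-A OE libraries were replicates 1 and 2 for both genes. Igf2 (chr7:142650766-142666816, minus strand) shares 3596 exon bases on its own strand with the gene model Gm49394 and 98 with the antisense Igf2os, so its count depends on how such reads were assigned, which is not given in the sources used here.

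Both receptors varied little. Igf1r, the signalling receptor, had 57.1, 58.9, 53.9 and 53.4 CPM in PGR-A OE libraries and 58.2, 52.0, 64.4 and 53.9 CPM in PGR-B OE libraries, against 58.8, 58.5, 54.6 and 64.1 CPM in control libraries. The groups overlapped throughout, with a coefficient of variation of 4.70% in PGR-A OE, 9.69% in PGR-B OE and 6.64% in control libraries. The fold change was 0.947 in PGR-A OE over control (95% interval 0.842 to 1.06) and 0.969 in PGR-B OE over control (0.862 to 1.09). Igf2r, the uptake receptor, was at 130 to 149 CPM in PGR-A OE and 119.8 to 149.6 CPM in PGR-B OE libraries, against 128 to 149 CPM in control libraries. Its fold change was 1.03 (0.916 to 1.16) in PGR-A OE and 0.969 (0.861 to 1.09) in PGR-B OE over control. These were the narrowest intervals among the 10 genes in both comparisons, and all 4 lie between 0.842 and 1.16. Per length, Igf2r stood above Igf1r by a ratio of 3.41 ± 0.183 in PGR-A OE, 3.13 ± 0.148 in PGR-B OE and 3.14 ± 0.235 in control uteri (SD, n = 4 each). The genes lie at chr7:67952827-68233668 (Igf1r, plus strand) and chr17:12682406-12769664 (Igf2r, minus strand), and neither shares exon bases with another gene model.

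**Figure D2:**
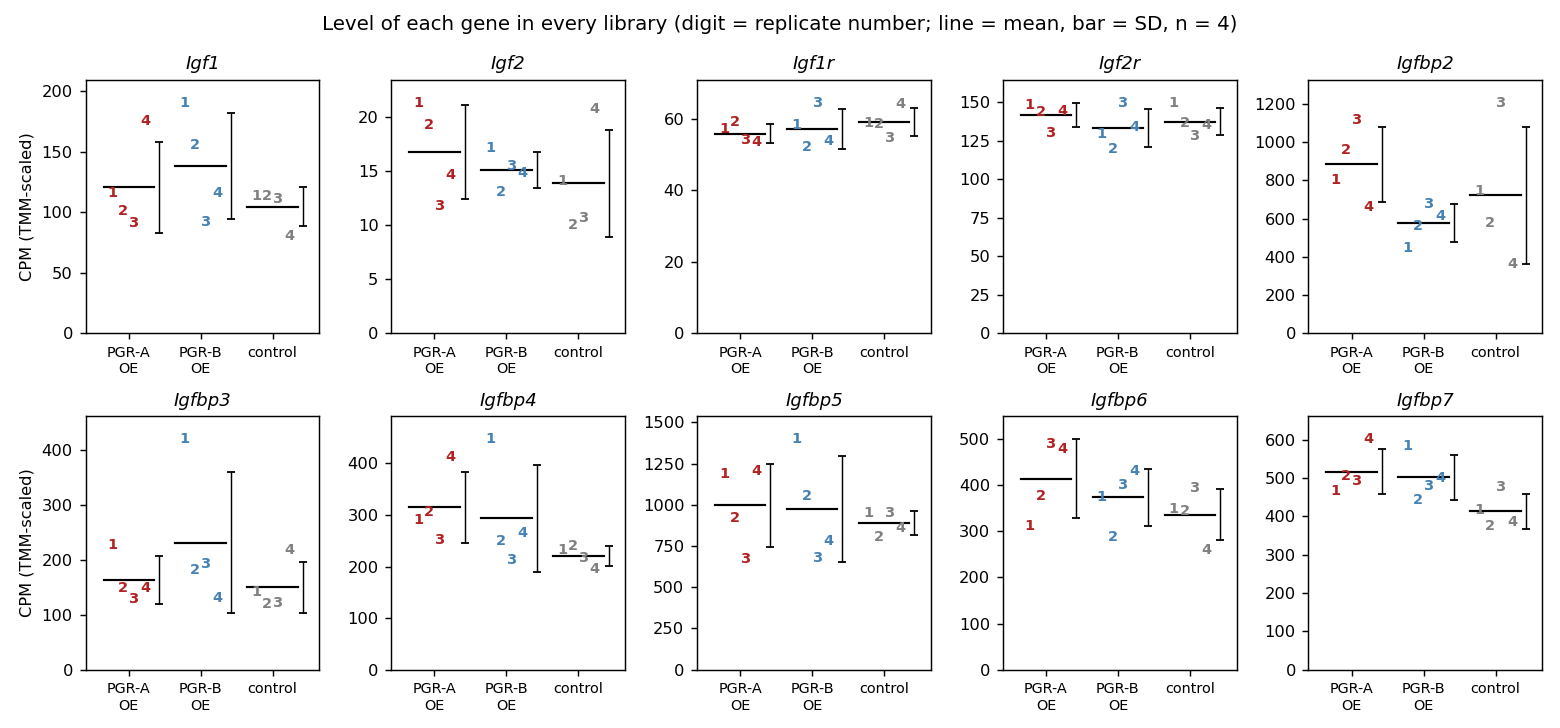
Level of each of the 10 genes in every library as TMM-scaled CPM on axes that start at 0. Digits are replicate numbers, horizontal lines group means and bars the SD (n = 4 per group); the receptors lie in narrow bands, and Igfbp4 is the one gene whose PGR-A OE libraries all lie above the control libraries.

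Igfbp4, a binding protein that mostly restrains IGF action and is a substrate of pappalysins, was the one gene whose PGR-A OE and control libraries did not overlap. The PGR-A OE libraries held 289.5, 306, 251 and 412 CPM, the PGR-B OE libraries 446, 249.5, 212 and 265 CPM, and the control libraries 232, 239, 216 and 195 CPM. Every PGR-A OE library lay above every control library, while PGR-B OE replicate 3 lay inside the control range. Across all genes 10.6% had groups that did not overlap in PGR-A OE over control, and of the 10 IGF genes Igfbp4 alone did. No IGF gene separated in PGR-B OE over control, beside 5.67% of all genes, or between the isoforms, beside 3.85%. The fold change was 1.43 in PGR-A OE over control (95% interval 1.04 to 1.96), with an unadjusted p of 0.031 and an edgeR adjusted p of 0.276. The unadjusted p stayed under 0.05 in 5 of the 8 fits that left out 1 library. In PGR-B OE over control the fold change was 1.33 (0.969 to 1.83, edgeR adjusted p = 0.581), and PGR-B OE over PGR-A OE gave 0.932 (0.68 to 1.28, edgeR adjusted p = 0.929). PGR-A OE replicate 4 carried part of the first value: without it the log2 change was 0.36 in place of 0.51, and without it and control replicate 4 it was 0.30 (edgeR adjusted p = 0.551). Without PGR-B OE replicate 1 the PGR-B OE value was 0.14 in place of 0.41. The gene spans chr11:99041244-99054392 on the plus strand and shares no exon bases with another gene.

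Igfbp7, a secreted protein of vessel walls and stroma that binds IGFs weakly, had the lowest p of the 10 genes in both comparisons with control. Its values were 467, 504, 493 and 601 CPM in PGR-A OE libraries and 584, 443, 481 and 499.8 CPM in PGR-B OE libraries, against 417, 375, 477 and 386 CPM in control libraries. Control replicate 3 was the one control library that reached into the overexpression ranges. The fold change was 1.25 in PGR-A OE over control (95% interval 1.05 to 1.48, unadjusted p = 0.0147, edgeR adjusted p = 0.215) and 1.21 in PGR-B OE over control (1.02 to 1.44, unadjusted p = 0.0289, edgeR adjusted p = 0.476). In PGR-A OE its unadjusted p stayed under 0.05 in each of the 8 fits that left out 1 library, and in PGR-B OE in 5 of 8. Without both PGR-A OE replicate 4 and control replicate 4 the log2 change was 0.20 in PGR-A OE (edgeR adjusted p = 0.424) and 0.25 in PGR-B OE (edgeR adjusted p = 0.389). PGR-B OE over PGR-A OE gave a fold change of 0.972 (0.82 to 1.15). Igfbp7 spans chr5:77349240-77408041 on the minus strand and shares 85 exon bases with Polr2b on the other strand, and whether counting used strand is not given in the sources used here.

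Summed markers of 3 cell types are given beside these 2 genes. The 8 fibroblast markers, of which none was at 0, summed to 40123 to 51709 CPM in PGR-A OE and 41302 to 51562 CPM in PGR-B OE libraries, against 34845 to 36720 CPM in control libraries. Neither overexpression range overlapped that of control, and the sum was mostly that of Col1a1, Col1a2 and Col3a1, with log2 changes of 0.39, 0.34 and 0.29 in PGR-A OE and 0.45, 0.45 and 0.38 in PGR-B OE over control. Pdgfra, Dcn, Lum and Dpt, which are no collagens, had values of -0.10, -0.02, 0.02 and 0.31 in PGR-A OE. In PGR-B OE their values were -0.06, 0.03, -0.14 and 0.10. Col15a1, a basement membrane collagen, was the 1 of 8 to pass the test, in PGR-A OE (log2 change 0.90, SE 0.17, edgeR adjusted p = 0.0392). The 10 smooth muscle markers summed to 17978 to 24588 CPM in PGR-A OE, 12956 to 17218 CPM in PGR-B OE and 13324 to 17479 CPM in control libraries, so PGR-A OE libraries alone lay above control, with 0 of the 10 past the test. The 8 endothelial markers summed to 622 to 711 CPM in PGR-A OE, 547 to 674 CPM in PGR-B OE and 576 to 658 CPM in control libraries, overlapping, with 0 of the 8 past the test. A different number of cells of a type and a different amount of RNA per cell cannot be told apart in bulk tissue. The part of these cell types in the levels of Igfbp4 and Igfbp7 was not tested.

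Igfbp2, which led the 6 per kilobase in PGR-A OE and control means, varied most in control uteri, with a coefficient of variation of 22.1% in PGR-A OE and 17.3% in PGR-B OE, against 49.7% in control libraries. The PGR-A OE libraries held 803, 957, 1115 and 662 CPM, the PGR-B OE libraries 444, 561, 679 and 614 CPM, and the control libraries 746, 575, 1207 and 362 CPM. PGR-B OE libraries lay below 3 of the 4 PGR-A OE libraries, with PGR-B OE replicate 3 just above PGR-A OE replicate 4, and the control libraries spanned both groups. Between the isoforms the fold change was 0.649 (95% interval 0.415 to 1.02, unadjusted p = 0.0572, edgeR adjusted p = 0.632), the lowest p of the 10 genes between the isoforms. DESeq2 gave an unadjusted p of 0.0329 and an adjusted p of 0.517. Against control the fold change was 1.22 (0.784 to 1.91) in PGR-A OE and 0.795 (0.509 to 1.24) in PGR-B OE. Control replicates 3 and 4 differed by a factor of 3.34, and the values moved with them: without replicate 3 the log2 change in PGR-A OE was 0.66 in place of 0.29, and without replicate 4 it was 0.07.

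Igfbp5, which binds matrix as well as IGFs, lies 5457 bases from Igfbp2 on chromosome 1, in the opposite direction. It held 1186, 922, 669.9 and 1205 CPM in PGR-A OE libraries and 1396, 1055, 679 and 778 CPM in PGR-B OE libraries, against 951, 805, 950.3 and 857 CPM in control libraries. The control libraries lay close together, inside the ranges of both overexpression groups. Its coefficient of variation was 25.4% in PGR-A OE and 32.9% in PGR-B OE, against 8.11% in control libraries. The fold change was 1.12 (95% interval 0.797 to 1.57) in PGR-A OE and 1.1 (0.782 to 1.54) in PGR-B OE over control. The log2 change of 0.16 in PGR-A OE became 0.056 without PGR-A OE replicate 4, 0.066 without replicate 1 and 0.31 without replicate 3. That of 0.13 in PGR-B OE became -0.09 without PGR-B OE replicate 1, 0.28 without replicate 3 and 0.23 without replicate 4. The neighbours lay at opposite ends of their group in 4 libraries, chosen after their values were seen: PGR-A OE replicate 3 and PGR-B OE replicate 3 had the least Igfbp5 and the most Igfbp2 of their groups, and PGR-A OE replicate 4 and PGR-B OE replicate 1 the reverse. Control replicate 3 had the most Igfbp2 of its group and close to the most Igfbp5. Over the 12 libraries, which share groups and tissue, Pearson's r of log2 CPM between them was -0.25, and -0.34 on deviations from the group means.

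Igfbp3, the main carrier of IGFs in serum, depended on 1 library in PGR-B OE uteri. Values were 228, 149.6, 128 and 149 CPM in PGR-A OE libraries and 419.7, 182, 193 and 131 CPM in PGR-B OE libraries, against 142, 119, 122 and 218 CPM in control libraries. PGR-B OE replicate 1 held more Igfbp3 than the next 2 PGR-B OE libraries together, and each group otherwise reached into the others. The fold change in PGR-B OE over control was 1.54 (95% interval 0.939 to 2.52, edgeR adjusted p = 0.595), the largest of the 10 genes in that comparison. Without PGR-B OE replicate 1 its log2 value was 0.17 in place of 0.62. In PGR-A OE over control the fold change was 1.09 (0.665 to 1.78), and its log2 value of 0.12 became 0.36 without control replicate 4 and -0.08 without PGR-A OE replicate 1. Leaving out control replicate 2 gave 0.028, control replicate 3 gave 0.035 and PGR-A OE replicate 3 gave 0.23.

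Igfbp6, a binding protein with a preference for IGF-II, was at 310.2, 377, 489 and 477 CPM in PGR-A OE libraries and 375, 286, 399.9 and 431 CPM in PGR-B OE libraries, against 347.5, 343, 394 and 259.7 CPM in control libraries. The groups overlapped, with the highest 2 values in PGR-A OE and the lowest in control replicate 4. The fold change was 1.23 (95% interval 0.949 to 1.59, edgeR adjusted p = 0.43) in PGR-A OE and 1.11 (0.857 to 1.44, edgeR adjusted p = 0.851) in PGR-B OE over control. Without control replicate 4 the log2 change was 0.19 in place of 0.30 in PGR-A OE and 0.045 in place of 0.15 in PGR-B OE, and without it and PGR-A OE replicate 4 the PGR-A OE value was 0.12. The PGR-B OE value was 0.078 with PGR-B OE replicate 4 left out, 0.26 with PGR-B OE replicate 2 left out and 0.24 with control replicate 3 left out.

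**Figure D3:**
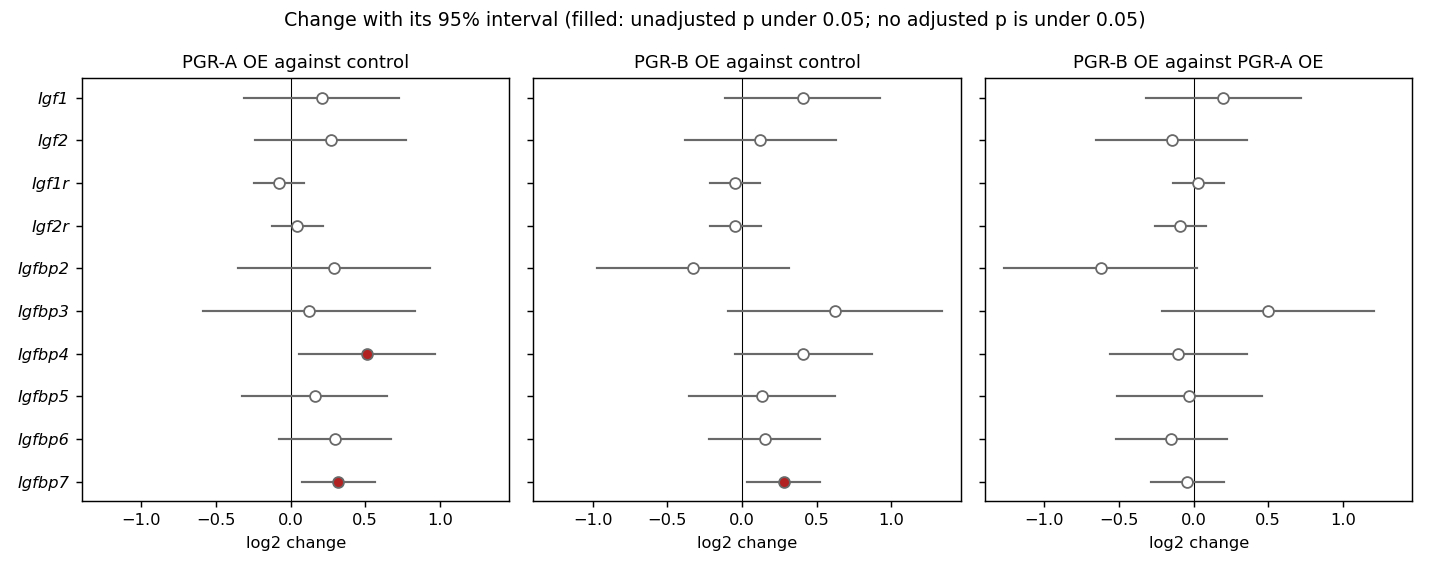
Log2 change of each gene (points) with its 95% interval (lines) from edgeR in the 3 comparisons, the group named first over the one named second. Filled points have an unadjusted p under 0.05: Igfbp4 and Igfbp7 in PGR-A OE over control and Igfbp7 in PGR-B OE over control; the shortest lines are those of Igf1r and Igf2r.

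As a family, 9 of the 10 genes had a positive log2 change in PGR-A OE over control, with a median of 0.24, beside 50.1% of all genes and a median of 0.00. In PGR-B OE over control 7 of 10 were positive, with a median of 0.14, beside 48.8% of all genes and a median of -0.01. Between the isoforms 3 of 10 were positive, with a median of -0.07, beside 51.2% of all genes and a median of 0.00. PGR-B OE replicate 1 was the highest of the 12 libraries for 4 of the 10 genes (Igf1, Igfbp3, Igfbp4 and Igfbp5). PGR-A OE replicate 4 was among the highest 2 for 5 of the 10. Control replicate 4 was the lowest for 4 genes (Igf1, Igfbp2, Igfbp4 and Igfbp6). How often these libraries were extreme over all genes was not counted, so these counts show no trait of the IGF genes. PGR-A OE replicate 4 and control replicate 4 also lay farthest out in the principal component analysis of all genes tested.

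Summed over the 6 binding proteins, transcript per length was 1759 ± 98.5 CPM per kilobase in PGR-A OE uteri, 1511 ± 146 in PGR-B OE uteri and 1431 ± 327 in control uteri (SD, n = 4 each). Igf1 and Igf2 together made 18.5 ± 4.65 CPM per kilobase in PGR-A OE, 20.3 ± 5.47 in PGR-B OE and 15.9 ± 1.05 in control uteri. Binding protein transcript exceeded ligand transcript by a ratio of 99.8 ± 27.2 in PGR-A OE, 77.8 ± 18.98 in PGR-B OE and 89.9 ± 18.6 in control uteri. The ranges of the groups overlapped. The sum includes Igfbp7, which binds IGFs weakly, and amounts of protein were not measured, so the ratio does not give binding capacity. Igfbp2 made up 35.5 ± 7.002% of the binding protein transcript in PGR-A OE, 27.2 ± 6.11% in PGR-B OE and 34.1 ± 9.35% in control uteri. Igfbp7 made up 24.2 ± 2.41%, 27.3 ± 0.662% and 24.3 ± 3.25% in the same groups. Igfbp2 was the leading binding protein in 9 of the 12 libraries, and Igfbp7 led in PGR-A OE replicate 4, PGR-B OE replicate 1 and control replicate 4.

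**Figure D4:**
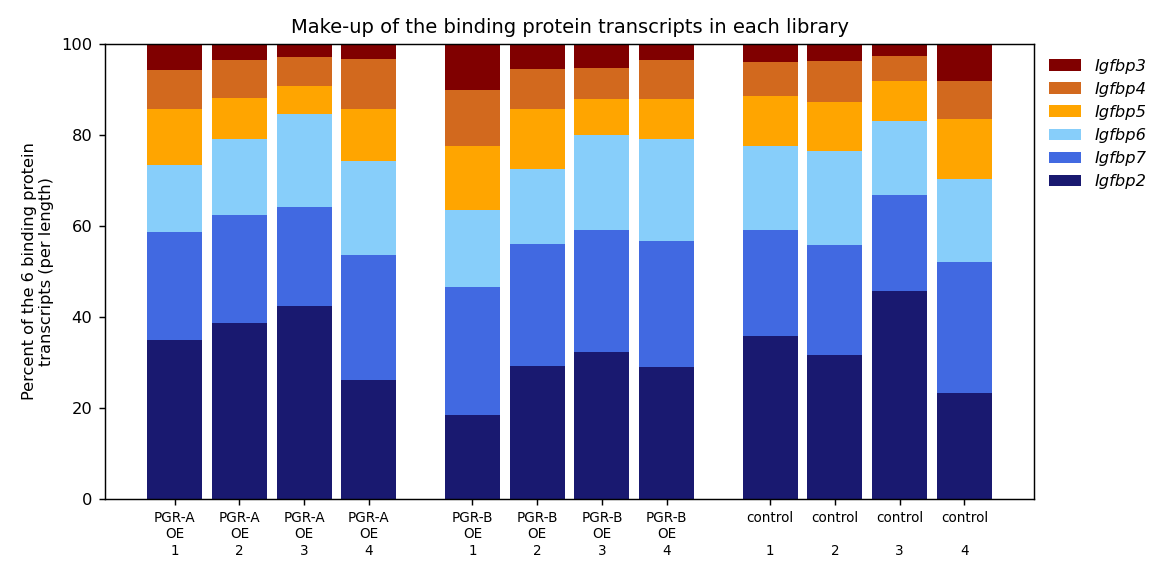
Share of each binding protein in the summed transcript per length of the 6 genes, in percent, for each of the 12 libraries. Igfbp2 spans 18.4% to 45.7% across libraries, while Igfbp7 stays between 21.1% and 28.8%.

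The other genes of the IGF system were read from lists that name insulin and insulin receptor genes, further carriers, proteases with their inhibitors, receptor signalling, the growth hormone axis and IGF2 mRNA-binding proteins. Igfbp1, the decidual binding protein of human pregnancy, had 33 reads over all 12 libraries and at most 6 in one, Igfals had 63 and Igfbpl1 12, and both insulin genes had 0. Of 5 further ligand, receptor and carrier genes with enough counts, 0 passed in any comparison with edgeR. The lowest p in PGR-A OE belonged to Kazald1, a secreted protein with an IGF-binding domain, at a log2 change of 0.56 (SE 0.19, unadjusted p = 0.0115, edgeR adjusted p = 0.196), and in PGR-B OE its value was 0.39 (SE 0.19, edgeR adjusted p = 0.563). Insr, the insulin receptor, was as even as the IGF receptors, at a log2 change of -0.03 in PGR-A OE (SE 0.07) and 0.03 in PGR-B OE (SE 0.07) over control.

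Among the 12 genes for proteases that cut binding proteins and for their inhibitors, 0 passed with edgeR in any comparison, with 3 below an unadjusted p of 0.05 in PGR-A OE, 3 in PGR-B OE and 0 between the isoforms, beside 15.4%, 9.28% and 8.04% of all genes. Pappa2, a pappalysin that cuts Igfbp3 and Igfbp5, was nearly silent in control uteri. It had 15, 21, 13 and 108 reads in PGR-A OE libraries and 39, 20, 37 and 28 reads in PGR-B OE libraries, against 5, 4, 9 and 3 reads in control libraries. Every overexpression library held more reads than every control library, beside 10.6% (PGR-A OE) and 5.67% (PGR-B OE) of all genes without overlapping groups. PGR-A OE replicate 4 was far above the rest. In CPM the means were 1.16 ± 1.34 in PGR-A OE, 0.959 ± 0.261 in PGR-B OE and 0.165 ± 0.0844 in control uteri (SD, n = 4 each). The log2 change was 2.80 in PGR-A OE over control (SE 0.70, unadjusted p = 0.00175, edgeR adjusted p = 0.104) and 2.51 in PGR-B OE over control (SE 0.71, unadjusted p = 0.00386, edgeR adjusted p = 0.253). DESeq2 called both, with adjusted p = 0.00458 in PGR-A OE and 0.0258 in PGR-B OE, and edgeR on the 8 libraries compared called it in PGR-B OE (adjusted p = 0.0318). DESeq2 called more genes than edgeR in both comparisons. In PGR-A OE over control it called 575 of 20439 genes, against 102 of 15561 with edgeR. Without PGR-A OE replicate 4 the log2 change in PGR-A OE was 1.57, and Pappa2 shares 310 exon bases with 1600012P17Rik on its own strand.

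The stanniocalcins, which inhibit pappalysins, had log2 changes of opposite sign. Stc2 had 12.001, 14.0, 15.4 and 21.3 CPM in PGR-A OE libraries and 20.0, 17.7, 19.4 and 21.2 CPM in PGR-B OE libraries, against 14.0, 11.2, 12.7 and 11.6 CPM in control libraries. PGR-B OE libraries lay above every control library and PGR-A OE libraries overlapped both. The log2 change of Stc2 was 0.66 in PGR-B OE over control (SE 0.15, edgeR adjusted p = 0.128; DESeq2 adjusted p = 0.00695) and 0.34 in PGR-A OE over control (SE 0.15, edgeR adjusted p = 0.311), which became 0.16 without PGR-A OE replicate 4. On the 8 libraries compared, edgeR called Stc2 in PGR-B OE (adjusted p = 0.0318). Stc1 had 4.28, 6.01, 5.52 and 6.34 CPM in PGR-A OE libraries and 4.87, 6.48, 7.35 and 4.68 CPM in PGR-B OE libraries, against 7.58, 8.59, 9.09 and 7.15 CPM in control libraries. PGR-A OE libraries lay below every control library, at a log2 change of -0.55 (SE 0.17, edgeR adjusted p = 0.168). In PGR-B OE, replicate 3 reached the control range, at a log2 change of -0.47 (SE 0.17, edgeR adjusted p = 0.421). Beside these genes, 10.6% of all genes had groups that did not overlap in PGR-A OE over control, and 5.67% in PGR-B OE over control. Pappa, the other pappalysin, was at 3.16 ± 0.69 CPM in PGR-A OE, 3.61 ± 0.68 CPM in PGR-B OE and 2.64 ± 0.552 CPM in control uteri (SD, n = 4 each).

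In the growth hormone axis, which drives Igf1 transcription in liver and other tissues, 1 of 8 genes passed, in PGR-A OE over control. Of all genes 0.655% passed in that comparison, and 0.174% passed as lower. Stat5a, a transcription factor of that axis and of prolactin signalling, fell to 46.4, 54.0, 69.3 and 57.7 CPM in PGR-A OE libraries, with 72.9, 68.0, 82.0 and 73.7 CPM in PGR-B OE libraries, against 94.9, 83.8, 85.5 and 91.5 CPM in control libraries. Both overexpression groups lay below every control library, beside 10.6% (PGR-A OE) and 5.67% (PGR-B OE) of all genes without overlapping groups. The log2 change was -0.65 in PGR-A OE (SE 0.11, edgeR adjusted p = 0.0182) and -0.26 in PGR-B OE over control (SE 0.11, edgeR adjusted p = 0.478). The PGR-A OE call was lost without control replicate 1 (adjusted p = 0.083), without PGR-A OE replicate 2 (0.0673), with control replicate 4 and PGR-A OE replicate 4 both left out (0.0599) and on the 8 libraries compared (0.057), at log2 changes of -0.61 to -0.64. Stat5a shares 72 exon bases with Stat3 on the other strand. Stat5b, the other Stat5 gene of the list, had a log2 change of -0.13 in PGR-A OE over control (SE 0.07, edgeR adjusted p = 0.399). Jak2, the kinase bound to the growth hormone receptor, was at 211 ± 15.2 CPM in PGR-A OE and 280 ± 34.9 CPM in PGR-B OE, against 330 ± 63.4 CPM in control uteri (SD, n = 4 each), and its log2 change of -0.64 in PGR-A OE missed the threshold (SE 0.13, edgeR adjusted p = 0.0547). PGR-B OE over PGR-A OE gave 0.38 for Stat5a (SE 0.11, edgeR adjusted p = 0.339) and 0.41 for Jak2 (SE 0.13, edgeR adjusted p = 0.452). All 8 genes of the axis had a log2 change below 0 in PGR-A OE over control, with a median of -0.12. The list also held Ghr, Socs2, Socs3, Prlr and Cish. The last 4 had small values of -0.11, -0.10, -0.10 and -0.08 (edgeR unadjusted p 0.277 to 0.723). Of all genes 50.1% were positive there, with a median of 0.00. Of the 8, 3 had an edgeR unadjusted p under 0.05 (Stat5a, Jak2 and Ghr), beside 15.4% of all genes. These 3 were lower in PGR-A OE over control, beside 7.87% of all genes lower at that level. Their direction was read from these same values. Igf1 itself had a value of 0.21 there, which became -0.03 without PGR-A OE replicate 4.

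**Figure D5:**
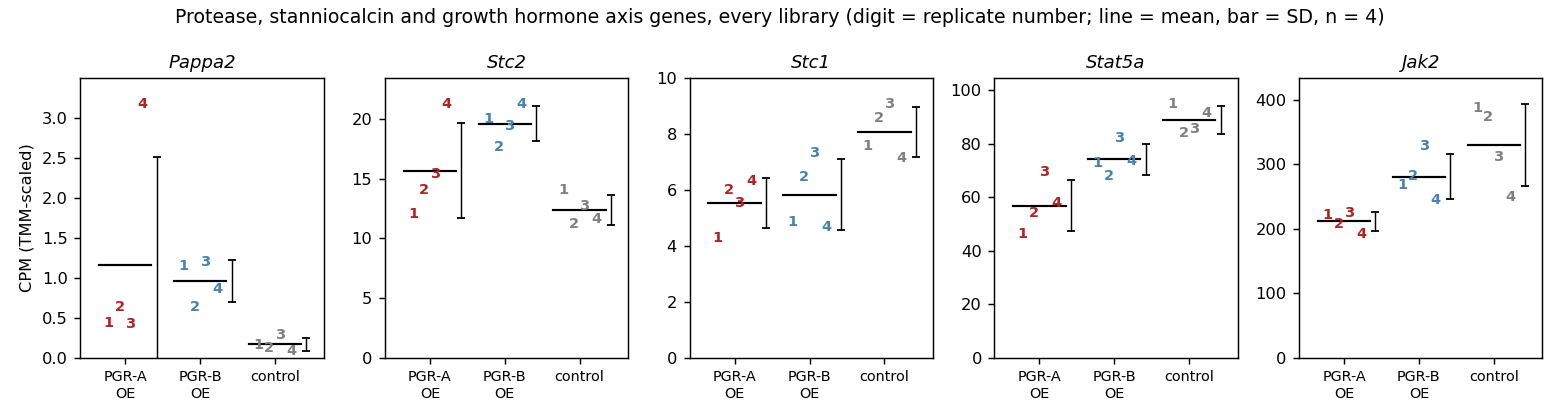
CPM in every library of the pappalysin Pappa2, the stanniocalcins Stc2 and Stc1, and Stat5a and Jak2 of the growth hormone axis. Digits are replicate numbers, lines means and bars the SD (n = 4 per group). The lower bar of Pappa2 in PGR-A OE ends at the axis. PGR-A OE libraries lie below all control libraries for Stc1, Stat5a and Jak2, beside 10.6% of all genes without overlapping groups.

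Of 29 receptor signalling genes, 0 passed with edgeR in any comparison, and 5 had an unadjusted p under 0.05 in PGR-A OE, 2 in PGR-B OE and 0 between the isoforms, beside the same shares of 15.4%, 9.28% and 8.04% of all genes. The 5 in PGR-A OE, to be set beside that 15.4%, were lower there (Gsk3b, Pdpk1, Rps6kb1, Sos1 and Foxo1). Their direction was read from these same values, and 7.87% of all genes were lower at that level. Pdpk1, the kinase that activates Akt, was at 76.8 ± 11.9 CPM in PGR-A OE and 84.5 ± 10.7 CPM in PGR-B OE uteri, against 103.5 ± 11.1 CPM in control uteri, with a log2 change of -0.43 in PGR-A OE (SE 0.13, edgeR adjusted p = 0.145) and -0.29 in PGR-B OE (SE 0.13, edgeR adjusted p = 0.503). Gsk3b, a kinase that Akt inhibits, had a log2 change of -0.22 in PGR-A OE (SE 0.06, edgeR adjusted p = 0.144). The list's median was -0.01 in PGR-A OE and -0.02 in PGR-B OE over control. Of the IGF2 mRNA-binding proteins, Igf2bp2 was at 41.5 ± 8.66 CPM in PGR-A OE and 50.7 ± 7.65 CPM in PGR-B OE, against 54.8 ± 6.48 CPM in control uteri (edgeR adjusted p = 0.249 and 0.877), and 0 of 2 with enough counts passed.

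The genes whose levels followed each IGF gene most closely over the 12 libraries were ranked by Pearson's r of log2 CPM among 9904 genes at 10 CPM or more. These values describe libraries that share groups and tissue, and each is the top of 9904 candidates. Igf1 was followed most closely by Gdf11 (r = 0.94) and Nid1 (0.93), a basement membrane protein. For Igf2 they were Pdgfb (0.93) and Esam (0.92), an adhesion molecule of endothelial cells. Igf1r had Kat7 (0.90) and Fam129b (0.89), and Igf2r had Ino80 (0.87) and Usp40 (0.86), the lowest values of the family. Among the binding proteins, Igfbp2 had Pou6f1 (0.92) and Dhrs3 (0.91), Igfbp3 had Ubqln2 (0.88) and Nog (0.88), and Igfbp4 had Nynrin (0.95) and Wnk4 (0.93). Igfbp5 had Sema5a (0.95) and Cdh11 (0.95), a cadherin of mesenchymal cells, Igfbp6 had Dlgap4 (0.95) and Haghl (0.94), and Igfbp7 had Zadh2 (0.96) and Bmp1 (0.94), a procollagen protease. On deviations from the group means the r of these 20 genes ran from 0.85 to 0.96, and the pair ranked first was unchanged for Igf1r alone.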

How the data were processed

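Uterine RNA was read as paired ends from TruSeq libraries, per the labels' protocols. The submitters' processing notes name Bowtie2 2.2.5, STAR 2.7.0f, featureCounts of Subread 1.6.4 and DESeq2, with builds mm10 and GRCm38. The authors deposited whole-number counts per gene with a gene length, with no normalization. Genes were kept with edgeR 4.0.16 filterByExpr (15561 of 24964), scaled by TMM and tested by the robust quasi-likelihood test over all 12 libraries with Benjamini-Hochberg adjustment (R 4.3.3). DESeq2 1.42.0 and limma 3.58.1 were alternatives. log2 CPM used a prior count of 2. Gene positions and shared exon bases came from GENCODE vM21 on GRCm38, which may differ from the counted annotation. The fits were tested on simulated counts. No pair of libraries in a group agreed within counting noise. The genes, lists and tests were chosen with earlier results of these data known; of each list, the genes past the threshold and otherwise the 2 with the lowest p are named, and a few more (Pappa, Stat5a in PGR-B OE, H19, Insr and the like) were named after their values were seen.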

Additional observations from a re-analysis of the deposited data

Results flagged for a closer look

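Within a group of 4 libraries, a value is given here where 1 library stood apart from the other 3 by more than Dixon's 95% critical value for its gap as a share of the group's range. This held for 13 of 129 groups examined. Chance gives about 1 in 20 where groups are independent and values normally distributed. The groups here share libraries and genes, as Prl8a2 and the decidual sum do, so no conclusion is drawn from that share. Among the IGF genes it held once: control replicate 4 had 80.5 CPM of Igf1, below 111 to 113 CPM in the other control libraries. PGR-A OE replicate 4 had 3.17 CPM of Pappa2, above 0.418 to 0.631 CPM in the other PGR-A OE libraries.

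The remaining values concern other cell types. PGR-A OE replicate 4 had 1286 CPM of Col15a1, above 767 to 844 CPM, and control replicate 2 had 433 CPM, below 510.1 to 519.98 CPM. Control replicate 4 had 5054 CPM of Prl8a2, above 174 to 449.7 CPM, so that its summed decidual markers were 5393 CPM, and its summed endothelial markers of 658 CPM were above 576 to 584 CPM. Summed trophoblast markers were 15.6 CPM in PGR-B OE replicate 3, above 1.12 to 3.21 CPM, and 14.4 CPM in control replicate 4, above 0.451 to 1.01 CPM, of which Prl7a1 made 8.51 CPM in the first library and Tpbpa 12.3 CPM in the second. Summed yolk sac and fetal markers were 23.7 CPM in PGR-A OE replicate 3, above 12.8 to 13.6 CPM, and 12.4 CPM in control replicate 3, below 40.6 to 41.6 CPM. These sums were mostly 1 gene, Amn, at 22.5 CPM in the first library and 11.5 CPM in the second. Summed uterine NK cell markers were 62.9 CPM in PGR-B OE replicate 1, above 17.9 to 23.0 CPM. Summed macrophage markers were 1322 CPM in PGR-A OE replicate 3, above 1033 to 1063 CPM. Their part in the IGF genes' levels was not tested.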

How the results depend on the processing

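Under every alternative run, 0 of the 10 IGF genes passed in any comparison. Counts over all genes moved more than 1.5 times in some. DESeq2 called 575 genes in PGR-A OE over control (293 higher and 282 lower, beside 75 and 27 with edgeR's 102), 216 in PGR-B OE over control and 125 between the isoforms. On the 8 libraries compared, edgeR called 63 in PGR-A OE over control and 10 between the isoforms. Leaving out 1 library gave 32 to 99 in PGR-A OE over control, lowest without control replicate 1, 22 to 48 in PGR-B OE over control, lowest without control replicate 2, and 11 to 31 between the isoforms, highest without PGR-A OE replicate 4. Without control replicate 4 and PGR-A OE replicate 4, an alternative chosen after seeing the data, there were 91 in PGR-B OE over control and 38 between the isoforms. With the replicate number as a block the counts were 69, 32 and 11, and both Pgr calls over control were lost (edgeR adjusted p = 0.122 in PGR-A OE and 0.0975 in PGR-B OE). Same-numbered libraries did not deviate together (correlations of deviations -0.26 to 0.19), so the numbers were not taken as pairs. The causes of these moves were not tested. Where the Pgr call was lost by leaving out 1 library (7 of 8 in PGR-A OE, 6 of 8 in PGR-B OE), its log2 value was 0.58 to 0.90. Under at least 1 alternative the log2 change turned its sign for 2 of the 10 genes in PGR-A OE over control (Igf1 and Igfbp3), for 5 in PGR-B OE over control (Igf2, Igf1r, Igf2r, Igfbp2 and Igfbp5) and for 4 between the isoforms (Igf1r, Igfbp4, Igfbp5 and Igfbp7). Every library held 31872534 counts or more, and with 4 libraries a group the interval for Igfbp3 in PGR-B OE over control still holds folds from 0.939 to 2.52.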
